A study of Mus musculus with 6 samples.

Results

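Complement components and inhibitors were followed in whole mouse uterus over the first 24 h after 1 injection of progesterone (P4). The 8 genes were Cd55, Serping1, C1qa, C1qb, C1qc, C4b, C2 and Cfb, and every probe set whose platform annotation gave 1 of these symbols as its only gene was taken. This gave 10 probe sets for 7 genes, of 12422 probe sets and 8251 genes in all. C4b had none of its own, because both probe sets that match it list C4a as well. The mice were ovariectomized wildtype 129/SvImJ females of 10 to 16 weeks, whose own ovarian hormones had thus been removed 14 days earlier. The 0 h mice received no injection, and the others were taken 6, 12, 15, 18 or 24 h after 0.2 mg P4 in 0.1 mL sesame oil under the skin. Each time was 1 RNA pool of 8 uterine horns from 4 mice on 1 Affymetrix array, so there were 6 arrays and no replicates. P4, oil and the injection itself cannot be told apart, and every difference from 0 h shares the same single 0 h array.

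Complement is a cascade of plasma and tissue proteins that marks particles and cells for removal. In the classical pathway C1q, built from the chains A, B and C, binds antibody or debris and switches on the proteases C1r and C1s. These cleave C4 and C2, which join into an enzyme that cleaves C3. Factor B (Cfb) provides the matching protease of the alternative pathway. C1 inhibitor (Serping1) blocks C1r and C1s, and decay-accelerating factor (Cd55) sits on the cell surface and takes the C3-cleaving enzymes apart. C1q is made mainly by macrophages and dendritic cells, and Cd55 protects the body's own cells, including those of the endometrium.

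The inhibitors and C1q differed in their time courses, so the bases upstream of the transcription start are shown for Cd55, whose 5 P4 arrays all lay below 0 h, and for C1qb and C1qc, which were lowest at 6 or 12 h. The sequences are the 250 bases before the start in RefSeq (build GRCm38.p6); the promoter table used here had entries for 3 of the 8 genes, all on the minus strand. Cd55 lies at chr1:130462745-130462994, C1qb at chr4:136886201-136886450 and C1qc at chr4:136892915-136893164. Capitals mark matches, on either strand, to TGTTCT, which is the half-site of the element bound by progesterone and glucocorticoid receptors, or to GAGGAA, the core bound by PU.1 and related factors of myeloid cells.
Cd55: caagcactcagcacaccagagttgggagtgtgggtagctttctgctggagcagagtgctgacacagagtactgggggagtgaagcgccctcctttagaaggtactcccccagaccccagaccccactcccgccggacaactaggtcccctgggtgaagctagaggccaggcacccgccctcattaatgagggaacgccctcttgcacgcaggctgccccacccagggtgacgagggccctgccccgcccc
C1qb: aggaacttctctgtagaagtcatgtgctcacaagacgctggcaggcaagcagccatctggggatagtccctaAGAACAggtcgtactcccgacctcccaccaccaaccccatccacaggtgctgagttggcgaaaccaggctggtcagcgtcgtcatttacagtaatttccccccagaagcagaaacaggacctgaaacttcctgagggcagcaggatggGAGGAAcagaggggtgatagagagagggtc
C1qc: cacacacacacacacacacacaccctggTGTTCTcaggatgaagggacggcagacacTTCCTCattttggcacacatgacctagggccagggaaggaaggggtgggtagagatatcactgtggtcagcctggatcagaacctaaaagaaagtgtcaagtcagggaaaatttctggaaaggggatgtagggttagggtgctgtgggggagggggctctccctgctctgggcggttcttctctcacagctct
The C1qb window held 1 match to TGTTCT, 178 bases before the start, and 1 to GAGGAA, 30 bases before it. The C1qc window held 1 of each as well, at 222 and 193 bases. The Cd55 window held 0 matches to either motif. Among 32851 windows of this length, 16.1% held TGTTCT and 23.3% GAGGAA, and the motifs did not overlap in the windows shown. In this annotation C1qb, C1qc and C1qa follow each other on chromosome 4 with 0 protein-coding genes between neighbours, and so do Cfb and C2 on chromosome 17, with C4b 5 protein-coding genes away.

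Values are log2 expression as deposited. All arrays share a lower limit of 5.39, and values under a floor of 6.60, the 40th percentile of the table, were set to it before differences were taken. Of the 10 probe sets, 8 were above the floor on all 6 arrays and were analysed, at least 1 for each of the 7 genes. The other 2 were a second probe set of C2 and a second of Cfb, below the floor on all 6. Some defining markers of the organ were measured, with Hoxa10 and Hoxa11 of the stroma, Krt18 of the epithelium and Acta2 of the muscle above the floor on all arrays. Others were not, with Vim and Mmp2 of the stroma, Myl9 of the muscle and Pecam1 of the endothelium below the floor on all arrays. Wnt7a of the epithelium was at the lower limit throughout. Array medians ran from 7.12 to 7.22, with 7361 to 7557 probe sets over the floor on each. The 0 h array correlated less with the P4 arrays, at 0.9388 to 0.9532, than these did with each other, at 0.9588 or more.

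**Figure D1:**
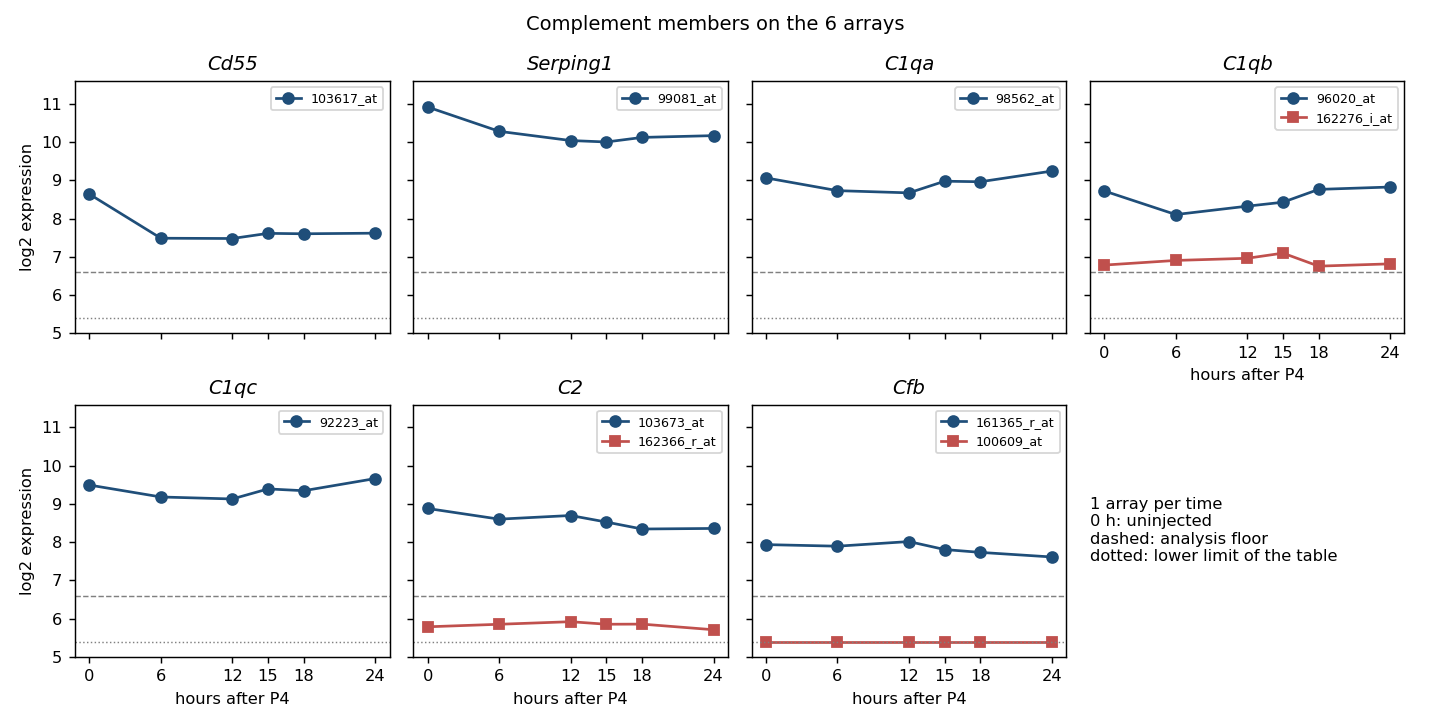
Log2 expression (y axis) of the 10 member probe sets against hours after P4 (x axis; 0 is uninjected), 1 array per point. Cd55 lies between 7.48 and 7.62 on the 5 P4 arrays and at 8.64 at 0 h; the second probe sets of C2 and Cfb stay below the dashed floor of 6.60.

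Both inhibitors fell. Cd55 (probe set 103617_at) had log2 levels of 8.64, 7.49, 7.48, 7.62, 7.60 and 7.62 at 0, 6, 12, 15, 18 and 24 h. The whole decline was thus present at 6 h, and the 5 P4 arrays spanned 0.14, with none near the 0 h level. As a share of 0 h the Cd55 signal was 45.0%, 44.7%, 49.1%, 48.7% and 49.3% at 6, 12, 15, 18 and 24 h. Cd55 averaged 7.56 on the P4 arrays and 8.64 at 0 h, a difference of -1.08 ± 0.13 (SE, limma across the 5 P4 arrays and 0 h; adjusted p = 0.0094). Of the 8 member probe sets analysed, Cd55 was the 1 at least 2-fold from 0 h at any time, as were 5.87% of all probe sets. It was at least 2-fold lower at all 5 times, as were 0.443% of all. With quantile normalization Cd55 reached 2-fold at 4 times, its smallest difference being -0.9992. With arrays scaled to the same trimmed mean it also did so at 4 times, with a smallest difference of -0.98. In whole uterus, fewer cells of a type and less RNA per cell cannot be told apart.

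A probe set shared by Cd55 and its duplicate Cd55b (92198_s_at), which is no member, stood at 7.38 at 0 h. On the P4 arrays it lay between 6.02 and 6.52, below the floor each time. Its unfloored differences from 0 h were -0.88, -1.16, -1.08, -1.36 and -0.85 at 6, 12, 15, 18 and 24 h. It was above the floor on 1 array and was not tested.

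Serping1 (99081_at), the C1 inhibitor, had log2 levels of 10.92, 10.28, 10.04, 10.01, 10.13 and 10.17 at 0, 6, 12, 15, 18 and 24 h. All 5 P4 arrays were lower than 0 h, with the lowest level at 15 h. Its signal as a share of 0 h was 64.4%, 53.1% and 59.5% at 6, 15 and 24 h. Serping1 averaged 10.13 on the P4 arrays and 10.92 at 0 h, a difference of -0.79 ± 0.13 (SE, limma adjusted p = 0.029). The call was lost without the 12, 15, 18 or 24 h array, with limma adjusted p of 0.11, 0.082, 0.083 and 0.062, while Cd55 kept it without each P4 array (0.011 to 0.049). With quantile normalization Serping1 also reached 2-fold at 1 time, with a lowest difference of -1.02.

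Across all 7724 probe sets tested, 1.8% were called lower than 0 h and 0.893% higher; of the 8 member probe sets 2 were called lower and 0 higher. Cd55 ranked 84 from the lowest difference and Serping1 185. The median difference over the 8 was -0.19, against 0.0001 over all probe sets tested. Lower than 0 h at all 5 times were 3 of the 8, Cd55, Serping1 and C2, and 27.2% of all probe sets.

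**Figure D2:**
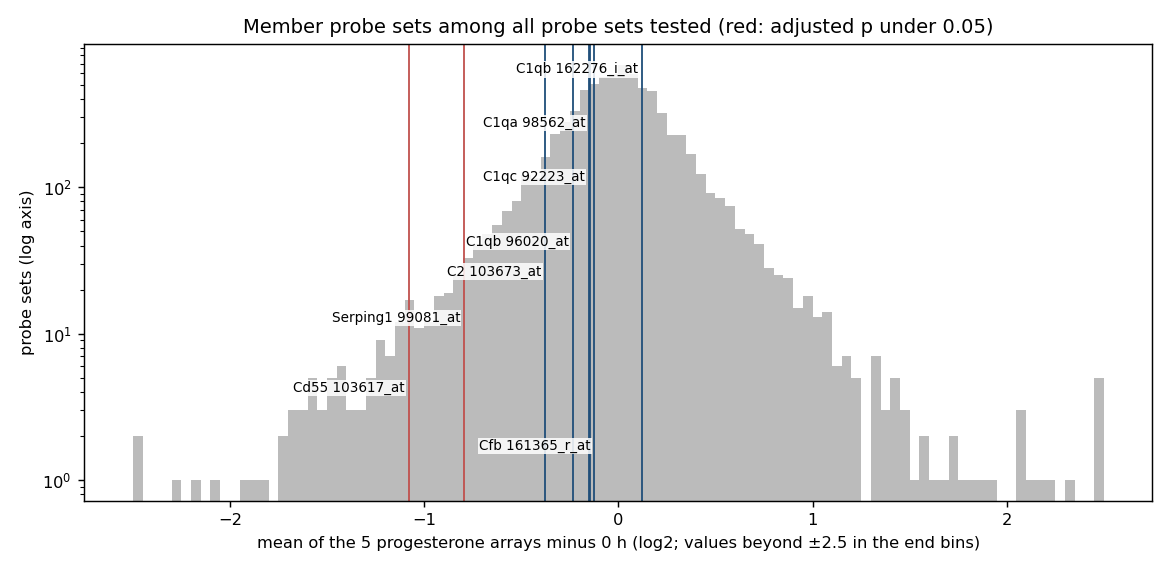
Histogram of the mean log2 difference of the 5 P4 arrays from 0 h (x axis) for the 7724 probe sets tested, with counts on a log y axis and lines at the member probe sets. Cd55 at -1.08 and Serping1 at -0.79 are drawn in red for an adjusted p under 0.05, and the other 6 lie between -0.38 and 0.12.

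Most markers of uterine epithelium were lower on the same arrays. Of 14 analysed epithelial genes, 11 were lower than 0 h at all 5 times, against 27.2% of all probe sets, and 3 fell in the limma test, Epcam, Krt18 and Ltf, against 1.8% of all. The other 3 were tight-junction claudins with positive mean differences that did not pass, Cldn3 at 0.43, Cldn7 at 0.15 and Cldn4 at 0.13. A separate limma fit of a trend over hours called 1 of the 14, against 0.31% of all probe sets. This was Krt7, with a slope of -1.51 ± 0.22 per 24 h (SE, limma adjusted p = 0.046). In the lists of other cell types limma called Cldn5, a claudin of endothelium, lower at -1.29 ± 0.16 (SE, adjusted p = 0.01). Fbln1, a matrix protein of the stroma list, was called at -0.60 ± 0.11 (adjusted p = 0.031), and both were lower at all 5 times. Other Fbln1 probe sets were not called, at -0.69, -0.27 and 0.16 (limma adjusted p = 0.053, 0.28 and 0.64). The summed linear signal of the 14 epithelial genes was 70.2% to 81.7% of the 0 h level on the P4 arrays. Krt19 and Cldn3 weigh most in it, with log2 levels of 11.30 and 11.21 at 0 h. Krt19 was lower and Cldn3 higher than 0 h at all 5 times. The part of epithelial cells in the lower Cd55 and Serping1 was not tested. The genes whose 6 levels were most like those of Cd55, among 400 probe sets of other genes at least 2-fold from 0 h at some time, were Lama3, a chain of epithelial laminin, Mycl, a transcription factor of the Myc family, and Mxi1, a repressor that pairs with Max. Pearson's r over the 6 arrays was 0.9987 for Lama3, 0.9934 for Mycl and 0.9919 for Mxi1. As in Cd55, most of this variation is the step between the single 0 h array and the 6 h array, where Lama3 differed from 0 h by -1.27, a limit set by the floor, Mycl by -1.07 and Mxi1 by -1.22. On the 5 P4 arrays alone r was 0.9596 for Lama3, 0.9441 for Mycl and 0.8576 for Mxi1. These r values are descriptions of a few arrays.

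The 3 C1q chains, the recognition part of the classical pathway, were lowest at 6 or 12 h and highest at 24 h, and their P4 arrays surrounded the 0 h level. C1qa (98562_at) stood at 9.07, 8.73, 8.67, 8.98, 8.97 and 9.24 at 0, 6, 12, 15, 18 and 24 h. C1qc (92223_at) followed the same order, with 9.49, 9.18, 9.13, 9.39, 9.34 and 9.66 at 0, 6, 12, 15, 18 and 24 h. In both, 12 h was the lowest array and 24 h the only one above 0 h.

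C1qb (96020_at) had levels of 8.72, 8.11, 8.33, 8.43, 8.77 and 8.83 at 0, 6, 12, 15, 18 and 24 h. It was lowest at 6 h and above 0 h at 18 and 24 h. As a share of the 0 h signal, C1qa was at 76.2% at 12 h and 113.1% at 24 h, C1qc at 77.7% and 112.5%, and C1qb at 65.2% at 6 h and 107.4% at 24 h. These 3 of the 8 member probe sets were lower than 0 h at 6 and 12 h and higher at 24 h, as were 8.11% of all probe sets; the order was noticed in the data.

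None of the chains passed a test. The mean difference of the P4 arrays from 0 h was -0.15 ± 0.21 for C1qa, -0.23 ± 0.26 for C1qb and -0.15 ± 0.20 for C1qc (SE, limma adjusted p = 0.77, 0.70 and 0.74). The slope over hours on all 6 arrays was 0.24 ± 0.23 per 24 h for C1qa, 0.32 ± 0.30 for C1qb and 0.20 ± 0.22 for C1qc (SE, limma adjusted p = 0.67, 0.64 and 0.71). Between 6 and 24 h the 3 levels differed by 0.51, 0.72 and 0.48. Without the 0 h array, the same fit gave 0.73 ± 0.22 for C1qa, 1.04 ± 0.22 for C1qb and 0.66 ± 0.22 for C1qc (SE, adjusted p = 0.12, 0.057 and 0.13). A second C1qb probe set (162276_i_at), close to the floor, did not show this order: its level was 6.78 at 0 h and between 6.76 and 7.10 on the P4 arrays, highest at 15 h.

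Markers of macrophages, which make C1q, were compared over the same arrays. Of 18 listed genes 15 had a probe set and 10 were analysed. Of these, 6 were lower than 0 h at all 5 times, against 27.2% of all probe sets. limma called 0 of them, against 1.8% of all lower and 0.893% higher. The summed linear signal of the 10 was 85.1%, 81.8%, 87.8%, 79.7% and 85.2% of the 0 h sum at 6, 12, 15, 18 and 24 h. Unlike the C1q chains, this sum lay below 0 h at 24 h too. Cd74 and Cd14 weigh most in it, with the highest log2 levels of the 10 at 0 h, 11.19 and 10.32. Csf1r, Mrc1 and Cd14 lay above 0 h at 24 h, as the C1q chains did. Among single markers, Csf1r, the receptor for the macrophage growth factor, differed from 0 h by -0.22 at 6 h and 0.02 at 24 h. The phagocyte glycoprotein Cd68 differed by -0.39 and -0.12, and Mrc1, the mannose receptor, by -0.01, from a value at the floor, and 0.40. The lysosomal protease Ctss stood at -0.72 and -0.29, and Lyz2, a lysozyme, at -0.29 and -0.75. Of the other 5, Laptm5 stood at -0.54 and -0.42, Tyrobp at -0.44 and -0.30, Cd74 at -0.23 and -0.33, Cx3cr1 at -0.28 and -0.08 and Cd14 at 0.14 and 0.04. The lowest adjusted p was that of Laptm5 (limma, 0.088). The defining marker Adgre1 was at the lower limit of the table on all 6 arrays, as were Fcer1g and Fcgr3. The part of these cells in the C1q values was not tested.

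**Figure D3:**
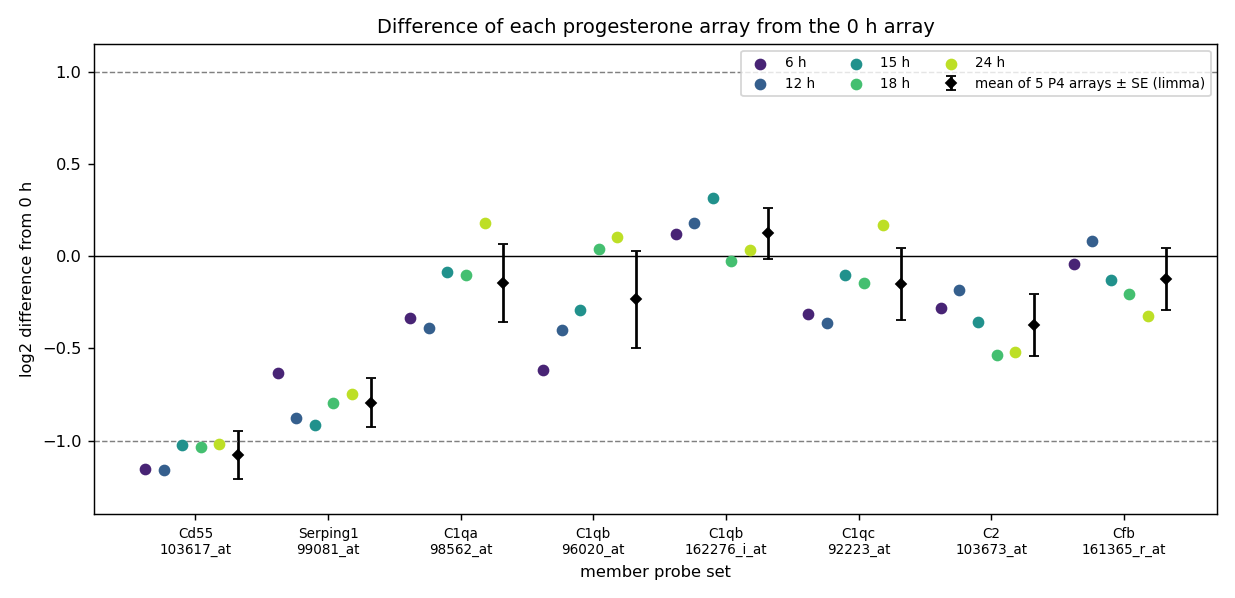
Log2 difference from the 0 h array (y axis) of the 8 analysed member probe sets at 6, 12, 15, 18 and 24 h (coloured points), with the mean of the 5 P4 arrays and its SE from limma (black). All 5 points of Cd55 lie below -1, those of Serping1 between -0.91 and -0.64, and those of the main C1q probe sets move from below 0 at 6 h to above 0 at 24 h.

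Neither protease of the C3-cleaving enzymes passed a test. C2 (103673_at), the catalytic part of the classical enzyme, had levels of 8.88, 8.60, 8.70, 8.52, 8.34 and 8.36 at 0, 6, 12, 15, 18 and 24 h. All 5 P4 arrays were below 0 h, and 18 and 24 h were lowest, at 68.9% and 69.6% of the 0 h signal. C2 averaged 8.50 on the P4 arrays and 8.88 at 0 h, a difference of -0.38 ± 0.17 that did not pass (SE, limma adjusted p = 0.28). Its slope over hours was -0.52 ± 0.16 per 24 h (SE, limma adjusted p = 0.19). The second C2 probe set (162366_r_at) lay between 5.71 and 5.92 on all arrays, below the floor, and gives no difference.

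Cfb (161365_r_at), the protease of the alternative pathway, had levels of 7.93, 7.89, 8.01, 7.81, 7.73 and 7.61 at 0, 6, 12, 15, 18 and 24 h. The 12 h array was above 0 h and the other 4 P4 arrays below it. The mean difference was -0.12 ± 0.17 and the slope -0.32 ± 0.17 per 24 h (SE, limma adjusted p = 0.76 and 0.39). The other Cfb probe set (100609_at) was at the lower limit on all 6 arrays, so the probe sets disagree on whether Cfb was measurable at all. The letter r in both weak or disagreeing names marks sets for which the array's usual rules of probe choice were relaxed.

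The probe set that C4a and C4b share (103033_at), for the fourth component, cannot be given to either gene. Its levels were 8.66, 8.09, 8.33, 8.39, 8.07 and 8.08 at 0, 6, 12, 15, 18 and 24 h. All P4 arrays were below 0 h, with a mean difference of -0.47 ± 0.17 that did not pass (SE, limma adjusted p = 0.19). The other shared probe set was at the lower limit throughout.

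In the fit of a trend over hours, 0 of the 8 member probe sets were called by limma, as against 0.31% of all probe sets; 2 of the 8, C2 and Serping1, and 16.2% of all had an unadjusted p under 0.05. The slope of Serping1 was -0.70 ± 0.26 per 24 h (SE, limma adjusted p = 0.24). That of Cd55 was -0.78 ± 0.37 (adjusted p = 0.35) and turned to 0.21 on the 5 P4 arrays alone, since its decline lay between 0 and 6 h.

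Of 40 other complement genes, 27 had a probe set of their own and 11 were analysed. limma called 0 of the 11 in either direction and 0 in the trend. An unadjusted p under 0.05 was found for 3 of the 11, all lower. Over both directions 1465 of the 7724 probe sets tested had one. Mean differences were negative in 9 of 11 with a median of -0.20. At all 5 times 6 were lower than 0 h, as were 27.2% of all probe sets. C1ra, the protease C1r that C1 inhibitor blocks, differed by -0.33, -0.63, -0.88, -0.80 and -0.72 at 6, 12, 15, 18 and 24 h, with a mean of -0.67 ± 0.20 (SE, limma adjusted p = 0.12). This is an f probe set, a class that can also match related genes, and a second C1ra probe set gave -0.16 ± 0.14. Cd59a, which blocks the membrane attack complex at the cell surface, differed by -0.91, -0.90 and -0.13 at 6, 12 and 24 h, with a mean of -0.62 ± 0.27 (adjusted p = 0.27).

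Among the other regulators, clusterin (Clu), which binds the late complex in fluid, had a mean difference of -0.50 ± 0.22 (SE, limma adjusted p = 0.26) and -0.71 ± 0.17 on its other, an f probe set (adjusted p = 0.074). Cr1l, the rodent surface inhibitor known as Crry, was at -0.20 ± 0.13 (adjusted p = 0.48), and Cd59b, the duplicate of Cd59a, at -0.03 ± 0.16 (adjusted p = 0.94). Of the receptors, Itgb2, the shared chain of the complement-binding integrins, was at -0.47 ± 0.13 (adjusted p = 0.098) and C3ar1, which senses the C3 fragment C3a, at -0.30 ± 0.11 (adjusted p = 0.20). C5ar1, which senses C5a, was at -0.01 ± 0.13 (adjusted p = 0.97). Of the 16 genes with a probe set that were not analysed, among them C9, Masp1 and Cfi, 9 were at the lower limit on every array that had a value.

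**Figure D4:**
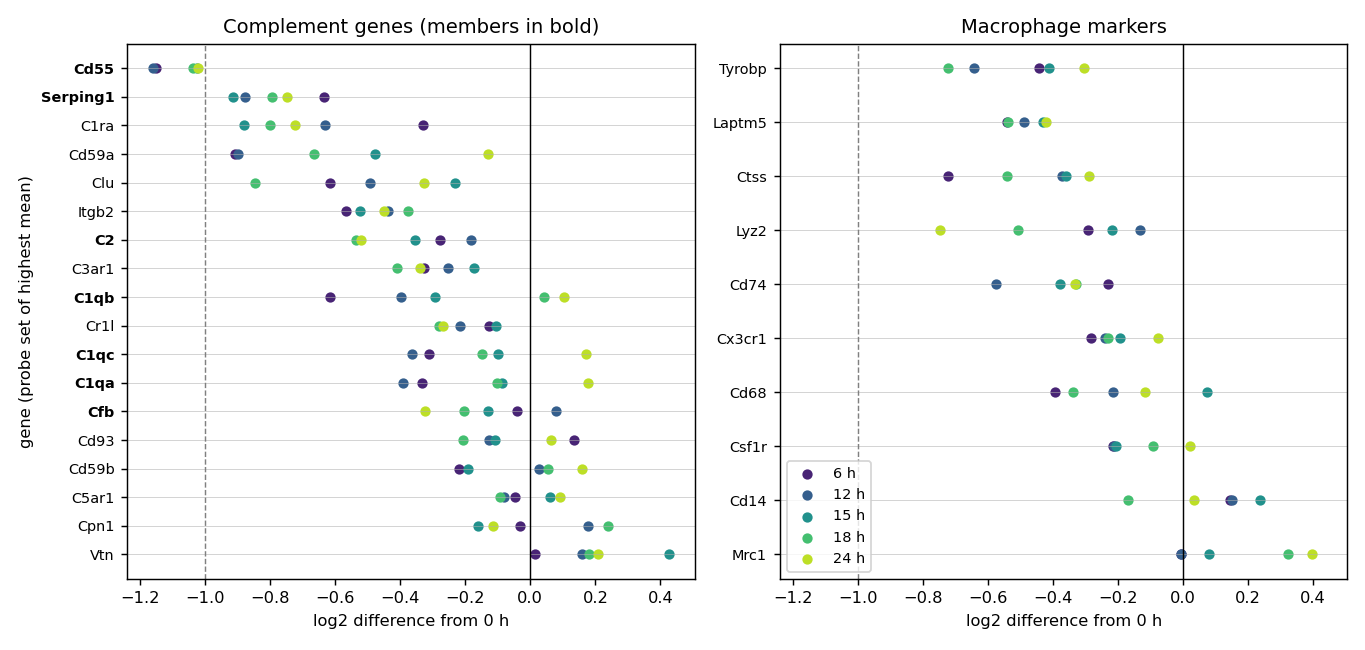
Log2 difference from 0 h (x axis) at 6, 12, 15, 18 and 24 h (colours) for the 18 analysed complement genes, members in bold, and the 10 analysed macrophage markers, each by its probe set of highest mean. Cd55 lies below -1 at every time, followed by Serping1 and C1ra, and the C1q chains cross 0 by 24 h.

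C2, Cfb and Serping1 are known to be induced by interferon, so a list of interferon-induced genes was set beside them. Of 15 analysed genes 14 were lower than 0 h at all 5 times, against 27.2% of all probe sets, and limma called 2 lower, against 1.8% of all. These were Ifit1 with differences between -1.22 and -1.07, most of them limits set by the floor, and Ifit2 with a mean difference of -0.93 ± 0.10 (SE, adjusted p = 0.0026 and 0.0071; floored values narrow their spread). The list's median difference was -0.67 at 6 h and -0.27 at 24 h. Psmb9, a subunit of the immunoproteasome, stood at -1.28 and -0.41 and Gbp3, a guanylate-binding protein, at -1.14 and -0.23. At 6 and 24 h C2 differed from 0 h by -0.28 and -0.52, Cfb by -0.04 and -0.32 and Serping1 by -0.64 and -0.75. The part of interferon in these values was not tested.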

How the data were processed

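RNA of 6 uterus pools was measured on 6 Affymetrix arrays, prepared and hybridized as the maker recommends, per the labels. Each value is the log2 expression of a probe set as deposited; for the software and the normalization, nothing is stated (not given in the sources used here). The base came from the values: of linear values under 2000, 99.76% lay within 0.05 units of the last place of a number with 4 decimals when base 2 was taken, and 6.423% with base e. Trimmed means (2%) lay between -4.11% and 3.42% of their median, so values were used as deposited. Of 12487 probe sets 65 controls were left out; 7731 above the floor on at least 2 arrays were analysed. Of 12422, 10833 had 1 symbol, 396 several and 1193 none.

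limma 3.58.1 (R 4.3.3; lmFit, eBayes with intensity trend) compared the 5 P4 arrays with 0 h and, separately, fitted hours, with 4 residual degrees of freedom where no value was missing and Benjamini-Hochberg adjustment over all probe sets. The error is the spread among P4 times, and 0 h, with its single array, is assumed to share it. "Fell" marks an adjusted p under 0.05. Single times have no test and were read at 2-fold. Arrays were grouped by title, and their number limits the precision. The scripts were tested on simulated data.

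Members and lists were chosen with earlier results of these data known. All member probe sets are named, first the one with the highest mean per gene. Other complement genes are named if called, at least 2-fold from 0 h, or among C3, Cfd, Clu, C1ra, C1s1, Cd59a and C3ar1 (C3, Cfd and C1s1 were not analysed here; 1 further gene the rule names is not reported here); Cr1l, Cd59b, Itgb2, C5ar1, C9, Masp1 and Cfi were added after their values were seen. Macrophage markers are all named where analysed, and of the other lists the genes called and some others, chosen after their values were seen. Interferon-induced genes are named if called or 2-fold, and the 3 genes most like a 2-fold member by Pearson's r. Alternatives were the floor, the filter, the scaling, the intensity trend and each array left out. Lists of neutrophil, lymphocyte, adipocyte, stroma, smooth muscle and endothelium markers were run too.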

Additional observations from a re-analysis of the deposited data

How the results depend on the processing

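With the floor at the 60th percentile Cd55 was not analysed, so 1 member probe set was called and 0 were 2-fold from 0 h. With no filter 1 was called, which was Cd55, and Serping1 was not (limma adjusted p = 0.051). With quantile normalization 2 were 2-fold from 0 h. The number of member probe sets called against 0 h lay between 1 and 2 as each P4 array was left out, and the count over all probe sets, 208, between 43 (without 12 h) and 590 (without 6 h). Its split of 69 higher and 139 lower was 104 and 136 with arrays scaled to the same trimmed mean and 22 and 202 with no filter. In the trend over hours, 24 probe sets were called, 53 with no floor, 10 with quantile normalization, 12 with trimmed-mean scaling, 0 with no filter (limma; 1219 at an unadjusted p under 0.05), and 0 to 147 as each array was left out (0 without 12, 15 or 18 h, with 1118, 1045 and 929 unadjusted; 147 without 0 h). Slopes of uncalled members changed sign: Cd55 ranged from -1.18 to 0.21 with an array left out, C1qa from -0.058 to 0.73, C1qc from -0.11 to 0.66 and the second C1qb probe set from -0.19 to 0.13, the last also -0.015 with trimmed-mean scaling. Of the alternative values of single member probe sets, 185 kept their direction and side of the threshold, 6 changed sign as given above and 5, all of Serping1 against 0 h, were no longer called. Apart from the counts that fewer probe sets or arrays change by construction, the cause was not tested. No paired analysis was possible because each time is 1 array with no replicate number. Signals near the shared lower limit cannot show differences.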

Other observations

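The marker lists of other cell types gave these median differences of analysed genes from 0 h, as means over the P4 arrays, for cells that can carry complement RNA. Neutrophil markers were at -0.18 over 4 genes, lymphocyte markers at -0.17 over 3, endothelium markers at -0.07 over 8, stroma markers at -0.12 over 10 and smooth muscle markers at 0.19 over 7. Adipocyte markers were at -1.12 over 4 genes, since the analysed Lpl probe set had no 0 h value. The fat hormone Adipoq stood at -1.03, -2.53 and -2.19 at 6, 15 and 24 h. Lep, another fat hormone of the list, stood at -0.21, -0.20 and 0.02 at the same times. limma called 0 of the adipocyte genes (adjusted p = 0.15 for Adipoq). In the endothelium and stroma lists limma called 1 gene each, both lower, Cldn5 and Fbln1.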
